A study of Mus musculus with 8 samples.

Results

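Heat shock proteins and molecular chaperones are the proteins that fold, refold and sort other proteins. The genes described here were chosen by symbol alone, from every gene symbol of the 8 deposited count tables that begins with Hsp, Dnaj or Cct2 to Cct8, together with Tcp1, Hsf1, Hsf2, Ahsa1, Stip1 and Bag1 to Bag6. Hspg2, a basement membrane proteoglycan gene, was left out. The rule took 94 of 24421 genes. Of these, 75 had enough counts to be tested and 19 did not, and 10 of those 19 had no count in any library. Sequencing of transcript 3' ends (3' RNA-seq) measured their levels in CD8+ T cells of the mouse, naive at the start and then activated for 48 hours with antibodies against CD3 and CD28 fixed to the plate. The control group, wild type for LKB1, and the LKB1-deficient group had 4 libraries each. The labels give neither strain, age, nor the way in which LKB1, the kinase encoded by Stk11, was removed, and do not say whether each replicate was its own animal; if replicates share an animal, the p-values below cover only the spread between these samples, which may be technical.

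HSP90 and HSP70 are ATP-driven chaperones. HSP70 takes hold of unfolded stretches of a client protein, J-domain proteins of the DNAJ family deliver the client and set off ATP hydrolysis, and HSP110 and BAG proteins exchange the nucleotide so that the client is let go. HSP90 acts later on nearly folded clients such as kinases and hormone receptors. CCT, also called TRiC, is a ring-shaped chaperonin of paired rings that encloses actin, tubulin and other clients, and HSP60 with HSP10 is the corresponding chamber of mitochondria. HSF1 is the transcription factor that switches on the cytosolic heat shock genes, whereas XBP1 and ATF6 switch on those of the endoplasmic reticulum (ER). Activated T cells grow and divide quickly and make proteins at a high rate.

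The control libraries held 7090252 to 12211930 gene counts and the LKB1-deficient libraries 3454388 to 6356125, so low genes are less precise in the latter. Values are CPM, counts set to a common library total and scaled with TMM factors (a trimmed mean of gene ratios that sets the libraries on a common scale). They count 3' ends, are not divided by transcript length, and are compared between libraries only. Stk11 ran from 67.8 to 101 CPM in control and from 64.4 to 107 CPM in LKB1-deficient libraries (log2 fold change -0.03 ± 0.18 (SE), edgeR adjusted p = 0.911). The sign of this value turned under 5 alternatives, and since the deleted part of the gene is not stated it checks no label. The T cell genes Cd3d and Cd8a fell 2.17-fold and 1.69-fold (edgeR adjusted p = 0.00385 and 0.0156). In all, 3 of 7 tested T and CD8 markers fell and none rose, 42.9% called beside 22.5% of all genes. Cd3e and Cd2 had log2 fold changes of 0.32 and 0.24 and did not pass (edgeR adjusted p = 0.202 and 0.203), while 5 lay below 0. The summed level of the 8 listed markers ran from 3767 to 4230 CPM in control and from 2077 to 3213 CPM in LKB1-deficient libraries. Markers of other cells were low. The sum of 12 myeloid and dendritic cell markers was at most 4.08 CPM, that of 8 B cell markers at most 13.4 CPM, that of 8 erythroid markers at most 10.8 CPM and that of 4 CD4 T cell markers at most 9.08 CPM. The B cell marker Cd79b fell 1.92-fold (edgeR adjusted p = 0.0164). The sum of 8 mast cell and basophil markers was 9.09 to 12.2 CPM in control and 14.6 to 39.9 CPM in LKB1-deficient libraries, with Gata2 and Il1rl1 4.15-fold and 2.54-fold higher (edgeR adjusted p = 0.0422 and 0.0296). These 2 calls were lost in 11 and 9 of 20 alternatives. Gata2 was at 0.563, 9.62, 2.36 and 8.36 CPM in LKB1-deficient replicates 1 to 4, with replicate 1 below every control library. Of 5 tested, 3 did not pass, among them Hdc (log2 fold change 0.03, edgeR adjusted p = 0.965). The 6 NK cell markers summed to 71.5 to 118 and 87.8 to 163 CPM. Most of this was Eomes, at 65.9 to 116 CPM in control and 82.9 to 151 CPM in LKB1-deficient libraries (edgeR adjusted p = 0.189). Fcer1g, Klrb1c and Ncr1 reached at most 9.32, 2.04 and 0.583 CPM in any library, and Klra8 and Klra4 had no count. The part of these cells in the results was not tested. Fewer cells of a type and less RNA per cell cannot be told apart in such bulk samples. For each gene count, control libraries held 2.92 to 3.5 and LKB1-deficient libraries 2.21 to 2.65 alignments with more than 1 place in the genome, and the part of this difference in the results was not tested.

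Across the 94 genes, chaperone transcripts took 2.89% to 3.16% of gene counts in control libraries and 3.4% to 3.93% in LKB1-deficient libraries, and the ranges did not overlap. Of the 75 tested genes, 16 rose and 3 fell at an adjusted p of 0.05, by the edgeR quasi-likelihood test with Benjamini-Hochberg adjustment over all genes tested. Among all 10396 tested genes, 12.4% rose and 10.1% fell, 22.5% in all, so the 25.3% of chaperone genes called is near the background. The median log2 fold change was 0.16 over the chaperone genes and 0.00 over all genes. Of these 75 genes, 19 had every LKB1-deficient library above every control library and 4 had every one below. Over all tested genes the shares were 12% above and 14.1% below, 26.1% in either direction. By family, the calls were distributed as follows. HSP90 and HSP70 held 9 of the 16 that rose among 14 tested genes, whereas none of 8 tested CCT subunits and neither of the HSP60 and HSP10 genes was called. Without LKB1-deficient replicates 2 and 4 only Hsp90aa1 kept its call, with all 19 log2 fold changes still on the same side of 0, and 6 genes rose when 1 of these libraries was omitted: replicate 3 or replicate 4 of the controls, or replicate 2 or replicate 4 of the LKB1-deficient group. Omitting control replicate 1 left 10. Calls became fewer over all genes as well. Without LKB1-deficient replicates 2 and 4, 2.37% of all tested genes and 1.3% of chaperone genes were called. In the 4 single omissions with 6 rises, 9.61% to 12.5% of all tested genes and 10.7% to 12% of chaperone genes were called. With total count scaling, which moves the median of all genes to -0.16, 8 rose and 4 fell, against 11 and 3 with upper quartile scaling. Over all genes the calls split into 1286 higher and 1051 lower with TMM, 829 and 1576 with total count scaling, and 1023 and 1446 with upper quartile scaling. Under total count scaling the median log2 fold change stayed above 0 for HSP90 (0.62, 1 of 3 genes called) and HSP70 (0.58, 3 of 11 called), whereas it was -0.12 for DNAJ, -0.18 for CCT and -0.01 over all chaperone genes, and none of the heat shock factor and co-chaperone genes was called.

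**Figure D1:**
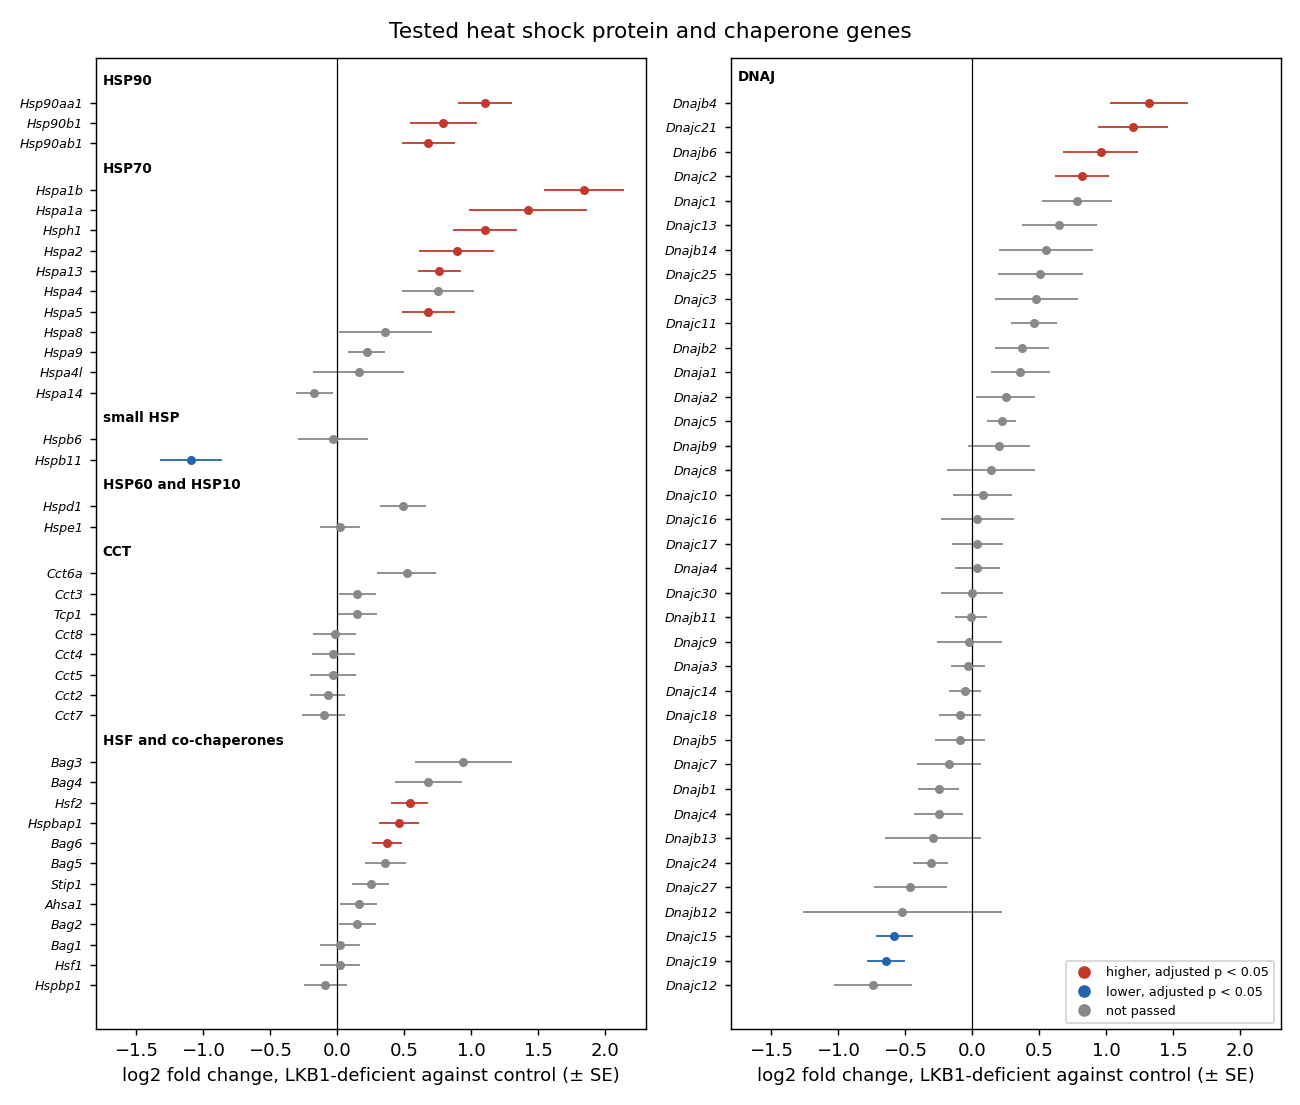
Log2 fold change of LKB1-deficient against control cells (horizontal axis) with its standard error for the 75 tested genes, grouped by family. All 3 HSP90 genes and 6 of 11 HSP70 genes lie to the right and are called, and 7 of the 8 CCT subunits lie between -0.1 and 0.15.

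All 3 HSP90 genes rose in LKB1-deficient cells, as 12.4% of all tested genes did. Hsp90aa1 encodes the heat-inducible cytosolic form and lies on chromosome 12 (110690605 to 110702728, minus strand, GRCm38). It was at 815, 1024, 822 and 872 CPM in control replicates 1 to 4 and at 1609, 2013, 1442 and 2495 CPM in LKB1-deficient replicates 1 to 4. Every LKB1-deficient library was above every control library, and the gene rose 2.14-fold (log2 fold change 1.10 ± 0.20 (SE), edgeR adjusted p = 0.00705). Hsp90ab1, the constitutive cytosolic form on chromosome 17, was at 9440, 10084, 9673 and 8295 CPM in control and 10422, 17831, 14405 and 17266 CPM in LKB1-deficient libraries. These groups did not overlap either, although LKB1-deficient replicate 1 lay just above control replicate 2 (1.6-fold, edgeR adjusted p = 0.0372). Hsp90b1 encodes GRP94, the HSP90 of the ER. Its values were 1693, 2470, 1251 and 1252 CPM in control and 2462, 3605, 2326 and 3115 CPM in LKB1-deficient libraries, so control replicate 2 lay among the LKB1-deficient libraries (1.73-fold, edgeR adjusted p = 0.0471). The call of Hsp90aa1 ended in 1 of 21 alternatives, the test against a 1.5-fold change. Those of Hsp90ab1 and Hsp90b1 ended in 13 each, including when any of 6 single libraries was left out (adjusted p up to 0.103 and 0.126). Of the 50-base words in the last 500 bases of Hsp90aa1 transcripts, 40.9% also occur in transcripts of other annotated genes, and reads from such words may not have been counted, against 4.11% for Hsp90ab1 and 1.01% for Hsp90b1.

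Among the HSP70 genes, 6 of 11 tested rose and none fell, with a median log2 fold change of 0.75. That is 54.5% called, beside 22.5% of all genes, of which 12.4% rose. Over the 21 alternatives the number of HSP70 genes that rose ran from 0 to 7 and the median from 0.49 to 0.88. The number was 0 without LKB1-deficient replicates 2 and 4 and 1 at an adjusted p of 0.01. The heat-inducible pair Hspa1a and Hspa1b lies on chromosome 17 and was scarce in these cells. Hspa1b was at 1.53, 1.95, 2.04 and 2.34 CPM in control and at 7.03, 7.29, 4.09 and 10.2 CPM in LKB1-deficient libraries. Every LKB1-deficient library exceeded every control library, and the rise was 3.58-fold (log2 fold change 1.84 ± 0.30 (SE), edgeR adjusted p = 0.00561). Hspa1a was at 0.27, 1.06, 1.21 and 0.779 CPM in control and 2.81, 2.62, 1.57 and 2.43 CPM in LKB1-deficient libraries (2.68-fold, edgeR adjusted p = 0.0418). The raw counts behind Hspa1a were 3 to 16 in control and 9 to 10 in LKB1-deficient libraries, and its call ended in 14 of 20 alternatives. No 50-base word of the last 500 bases of either gene occurs in another annotated gene's transcripts, so this pair, although nearly identical in its coding part, differs at the 3' ends counted here. Hspa2, best known from male germ cells, was at 2.07, 3.09, 2.5 and 2.6 CPM in control and 2.81, 6.12, 5.67 and 4.31 CPM in LKB1-deficient libraries (1.86-fold, edgeR adjusted p = 0.0437), with LKB1-deficient replicate 1 inside the control range. This call ended in 14 of 20 alternatives.

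The constitutive cytosolic HSP70, Hspa8 (HSC70), did not pass. Its values were 334, 161, 305 and 303 CPM in control and 350, 404, 147 and 519 CPM in LKB1-deficient libraries, and both the lowest and the highest library were LKB1-deficient (log2 fold change 0.36, 95% interval -0.41 to 1.14, edgeR adjusted p = 0.46). As 60.6% of the 50-base words at its 3' ends occur in other annotated genes, its counts are uncertain. Hspa9, the mitochondrial HSP70 called mortalin, was at 580, 754, 694 and 760 CPM and 863, 788, 828 and 762 CPM. The groups did not overlap, but control replicate 4 and LKB1-deficient replicate 4 almost met (log2 fold change 0.22, edgeR adjusted p = 0.277). Hspa14, which pairs with the J protein Dnajc2 on the ribosome, ran from 267 to 347 CPM and from 260 to 295 CPM (log2 fold change -0.17, edgeR adjusted p = 0.374).

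The HSP110 proteins are large HSP70 relatives that release nucleotide from HSP70. Of these, Hsph1 (chromosome 5) went from 186, 246, 149 and 170 CPM in control to 330, 483, 273 and 529 CPM in LKB1-deficient libraries, with no overlap (2.15-fold, log2 fold change 1.10 ± 0.24 (SE), edgeR adjusted p = 0.0132). Leaving out any single library kept this call (adjusted p at most 0.0422). Hspa4 was at 631, 1023, 613 and 528 CPM and 688, 1226, 1526 and 1251 CPM. Control replicate 2 lay above LKB1-deficient replicate 1, and the gene did not pass (log2 fold change 0.75, edgeR adjusted p = 0.0711). Hspa4l ran from 21.8 to 66.2 CPM and from 31.6 to 67.7 CPM (edgeR adjusted p = 0.768).

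**Figure D2:**
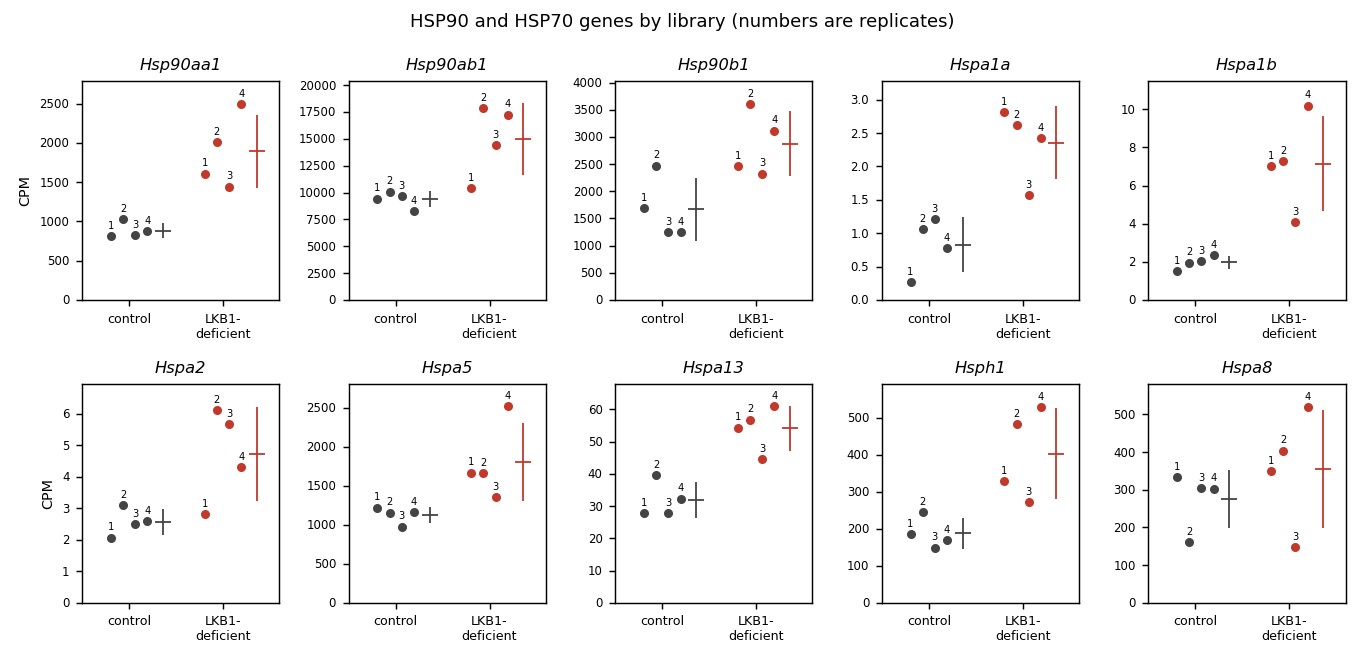
CPM (vertical axis, from 0) of 10 HSP90 and HSP70 genes in the 4 control and 4 LKB1-deficient libraries; numbers beside the points are replicates, and the bars are the mean ± SD of each group. Hsp90aa1, Hsp90ab1, Hspa1a, Hspa1b, Hspa5, Hspa13 and Hsph1 have no overlap between groups, and Hspa8 spreads from 147 to 519 CPM within the LKB1-deficient group alone.

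In 9 of the 16 genes that rose, LKB1-deficient replicates 2 and 4 were the highest libraries of their group, among them all 3 HSP90 genes, Hspa1b, Hspa13 and Hsph1. The same order held in 61.7% of the 1286 genes that rose in the whole table, against 56.2% here. Reads that fell in no gene came to 12.1% to 14.3% in control and 14.9% to 17.5% in LKB1-deficient libraries, without overlap, and were highest in LKB1-deficient replicates 2 and 4 (17.5% and 16.5%). Their part in the rises was not tested.

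A list of 10 members that reside in the ER was followed, which is not complete. The J proteins Dnajc14, Dnajc16, Dnajc18 and Dnajc25 are not in it, and none passed (log2 fold change -0.05, 0.04, -0.09 and 0.51). All 10 were tested, and 30% were called beside 22.5% of all genes (median log2 fold change 0.51, against 0.00 over all genes). Of the 10, 3 rose and none fell. Besides Hsp90b1 these were Hspa5 and Hspa13. Hspa5 encodes BiP, the HSP70 of the ER lumen and a sensor partner in the unfolded protein response, and lies on chromosome 2 (34771970 to 34777547, plus strand). It was at 1218, 1154, 977 and 1165 CPM in control and 1669, 1666, 1355 and 2519 CPM in LKB1-deficient libraries, without overlap (1.6-fold, log2 fold change 0.68 ± 0.20 (SE), edgeR adjusted p = 0.0382). Hspa13, a microsomal HSP70, was at 27.9, 39.5, 27.9 and 32.3 CPM and 54.3, 56.8, 44.5 and 60.9 CPM (1.69-fold, edgeR adjusted p = 0.0115). The call of Hspa5 ended in 14 of 21 alternatives and that of Hspa13 in 3, none of which left out a single library. None of the 7 ER J proteins of the list passed. Dnajc1 was nearest, at 229, 201, 138 and 124 CPM in control and 186, 298, 310 and 396 CPM in LKB1-deficient libraries, with LKB1-deficient replicate 1 inside the control range (log2 fold change 0.78, 95% interval 0.21 to 1.35, edgeR adjusted p = 0.0528). Dnajb14 and Dnajc10 had log2 fold changes of 0.55 and 0.08, and Dnajb12 of -0.52 (edgeR adjusted p = 0.26, 0.82 and 0.631). Dnajb11, the J partner of BiP, was at 186, 204, 186 and 219 CPM and 204, 194, 186 and 206 CPM, so its groups coincided (log2 fold change -0.01, edgeR adjusted p = 0.969). Dnajb9 ran from 5.57 to 6.82 CPM and from 5.25 to 9.57 CPM (edgeR adjusted p = 0.553), and Dnajc3, known as p58IPK, from 173 to 297 CPM and from 170 to 533 CPM (edgeR adjusted p = 0.271).

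The promoters of these ER genes are shown because they hold the ER stress element, the site read by XBP1 and ATF6. Promoters from RefSeq (GRCm38.p6, 250 bases before to 50 after each start) matched 77 of the 94 genes. Among the 17 without an entry, and so not searched, were Hsp90aa1, Hsp90ab1, Hspa8, Hspa13 and Dnajc2. The element was searched as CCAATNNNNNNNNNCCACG on both strands. It occurred in 3 of the 77 genes (3.9%), against 0.137% of the 27025 genes in the promoter table. These were Hspa5, Hsp90b1 and Dnajc3, of which Hspa5 and Hsp90b1 rose. Each stretch is given 5′ to 3′ on the gene's own strand, with the element in capitals. Distances are from the RefSeq start, which differs from the outermost GENCODE start, so that the Hspa5 element lies inside the GENCODE span of the gene given above. That of Hspa5 starts 65 bases before the RefSeq start (chr2:34772010-34772058, plus strand), that of Dnajc3 105 bases before (chr14:118937812-118937860, plus strand), and Hsp90b1 has 1 element 212 and 1 element 107 bases before the start, the second on the opposite strand (chr10:86705518-86705671, minus strand). A match is a description of the letters and not proof of a bound site.
Hspa5: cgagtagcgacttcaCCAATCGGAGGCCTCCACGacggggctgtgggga
Dnajc3: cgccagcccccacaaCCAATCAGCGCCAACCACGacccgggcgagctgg
Hsp90b1: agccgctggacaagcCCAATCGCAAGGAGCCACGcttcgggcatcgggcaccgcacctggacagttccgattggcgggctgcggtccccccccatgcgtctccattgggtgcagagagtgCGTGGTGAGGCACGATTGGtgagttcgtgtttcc

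Other ER genes outside the chosen families moved in both directions. Of 24 tested genes for ER chaperones and the unfolded protein response, 4 rose and 2 fell (median 0.07). That 25% were called is near the 22.5% of all genes. Pdia4, a disulphide isomerase, went from 131 ± 17.2 to 268 ± 36.6 CPM (SD, n = 4 each, edgeR adjusted p = 0.00385), and Canx, the lectin chaperone calnexin, from 318 ± 20.3 to 493 ± 56.2 CPM (edgeR adjusted p = 0.0136). Calr and Atf6, named after their values were seen, rose 2.93-fold and 1.5-fold. Ddit3, encoding the stress factor CHOP, fell 1.69-fold (edgeR adjusted p = 0.0377, a call lost in 11 of 21 alternatives), and Sdf2, a component of a BiP complex, fell 1.54-fold.

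Of 8 tested mitochondrial members, 25% were called, near the 22.5% of all genes. None rose and 2 fell, and both are J proteins of the inner membrane. Dnajc15, known as MCJ, a brake on respiratory complex I, was at 379, 305, 341 and 341 CPM in control and 266, 206, 239 and 206 CPM in LKB1-deficient libraries (log2 fold change -0.58 ± 0.14 (SE), edgeR adjusted p = 0.0195). Dnajc19, the TIM14 subunit of the protein import motor, was at 86.1, 71.4, 89.1 and 100 CPM and 56.3, 52.2, 62.6 and 51.5 CPM (log2 fold change -0.64 ± 0.14 (SE), edgeR adjusted p = 0.0131). Neither gene overlapped between groups, and they fell 1.49-fold and 1.55-fold. The call of Dnajc15 ended without control replicate 3 or LKB1-deficient replicate 2 or 4 (adjusted p up to 0.0601), while that of Dnajc19 outlasted each single omission. Among all tested genes, 14.1% had every LKB1-deficient library below every control library.

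Hspd1 and Hspe1, the HSP60 and HSP10 of mitochondria, are divergent neighbours on chromosome 1 with 1 shared promoter. Hspd1 was at 371, 490, 377 and 434 CPM in control and 506, 601, 500 and 745 CPM in LKB1-deficient libraries. All of the latter were higher, but the gene did not pass (log2 fold change 0.49, 95% interval 0.11 to 0.88, edgeR adjusted p = 0.0637) except with DESeq2 and with the trend on transcript length removed. Hspe1 was at 216, 220, 275 and 265 CPM and 271, 275, 216 and 228 CPM, and its groups coincided (log2 fold change 0.02, 95% interval -0.30 to 0.34, edgeR adjusted p = 0.928). The difference between the 2 genes was not tested. Of the 50-base words at their 3' ends, 29.8% and 26.6% recur in other annotated genes, largely pseudogenes, so both counts are uncertain, and their exons overlap on opposite strands. The shared promoter holds overlapping heat shock elements, the site that HSF1 binds, as 3 blocks of GAA or TTC in alternation. The element was searched as GAA, TTC and GAA, or as TTC, GAA and TTC, with 2 free bases after each of the first blocks, which covers both strands. It occurred in 4 of the 77 genes with a promoter (5.19%), against 0.662% of all genes in the table. The genes were Hspd1, Hspe1, Hsph1 and Dnajb6, of which Hsph1 and Dnajb6 rose. The stretches below are given on each gene's strand with the element in capitals, to set the shared site beside those of the genes that rose. They lie at chr1:55088044-55088091 (plus strand for Hspe1), chr5:149636287-149636315 (minus strand, 36 bases after a start of Hsph1) and chr5:29735837-29735879 (plus strand, 46 or 127 bases before the starts of Dnajb6).
Hspe1: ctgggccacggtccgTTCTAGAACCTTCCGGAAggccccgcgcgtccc
Hsph1: gtaaaatgctgcagaTTCTGGAAAGTTCt
Dnajb6: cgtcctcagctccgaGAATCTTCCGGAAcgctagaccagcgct

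Outside the chosen families, 16.7% of 12 tested genes for mitochondrial proteases and stress were called, beside 22.5% of all genes. Of these 12, 2 fell and none rose. They were Hscb, the J protein of iron-sulphur cluster assembly (83.3 ± 7.24 to 43.5 ± 9.42 CPM, SD, n = 4 each, edgeR adjusted p = 0.00617), and Clpb, a disaggregase of mitochondria (57.3 ± 6.19 to 38.7 ± 3.34 CPM, edgeR adjusted p = 0.0147).

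The DNAJ family is the largest, with 45 genes, and J proteins choose the clients and sites at which HSP70 works. Of 37 tested, 4 rose, 2 fell and 31 did not pass, with a median log2 fold change of 0.04. That 16.2% were called stands against 22.5% of all genes. The 2 that fell are the mitochondrial genes above. Dnajc21, a J protein of ribosome assembly on chromosome 15, was at 292, 282, 184 and 162 CPM in control and 374, 634, 414 and 697 CPM in LKB1-deficient libraries. The groups did not overlap (2.3-fold, log2 fold change 1.20 ± 0.26 (SE), edgeR adjusted p = 0.0138). Dnajc2, the ribosome-bound J protein MPP11, was at 901, 868, 621 and 554 CPM and 1058, 1416, 1231 and 1492 CPM (1.77-fold, edgeR adjusted p = 0.0199). Both thus rose with every LKB1-deficient library above every control library, as 12% of all tested genes did.

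Dnajb4, a cytosolic partner of HSP70, was at 10.1, 11.5, 8.93 and 10.3 CPM in control and 15.8, 25.4, 17.9 and 43.1 CPM in LKB1-deficient libraries (2.49-fold, log2 fold change 1.32 ± 0.29 (SE), edgeR adjusted p = 0.0136). LKB1-deficient replicate 4 stood high, and without it the gene was still called. Dnajb6, which keeps polyglutamine proteins from aggregating, was at 172, 177, 109 and 81.7 CPM and 336, 307, 176 and 232 CPM, so LKB1-deficient replicate 3 fell within the control range (1.95-fold, edgeR adjusted p = 0.0354). Its call ended in 9 of 21 alternatives and that of Dnajc2 in 7. The standard heat-inducible partner of HSP70, Dnajb1, was at 87.1, 77.3, 103 and 104 CPM and 92.8, 75.5, 79.5 and 64.2 CPM, lower on average in LKB1-deficient cells but overlapping (log2 fold change -0.25, 95% interval -0.59 to 0.09, edgeR adjusted p = 0.24). Dnaja1, the main farnesylated cytosolic J protein, ran from 91.8 to 158 CPM and from 112 to 210 CPM (edgeR adjusted p = 0.253). By structural class, none of 4 tested DNAJA genes was called. Of 10 DNAJB genes 2 rose and none fell (20% called), and of 23 DNAJC genes 2 rose and 2 fell (17.4% called). These shares stand beside 22.5% of all genes, and a difference between classes was not tested. Dnajc8, a J protein associated with the spliceosome, spread from 295 to 735 CPM in control and from 398 to 891 CPM in LKB1-deficient libraries (edgeR adjusted p = 0.785).

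**Figure D3:**
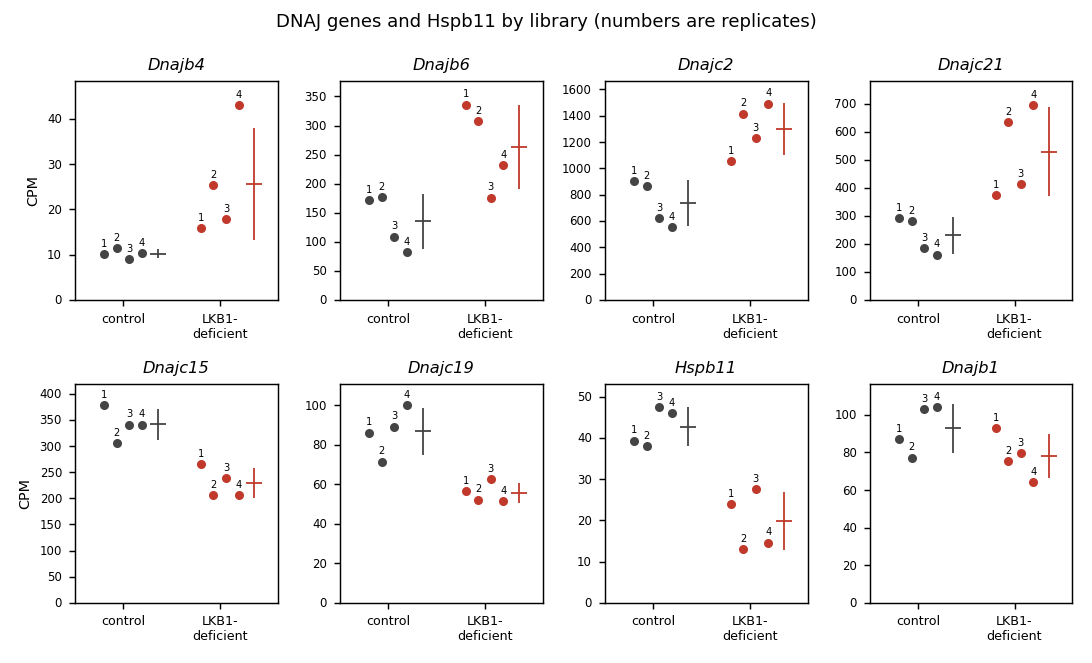
CPM (vertical axis, from 0) of 7 DNAJ genes and Hspb11 in each library; numbers are replicates and the bars are the mean ± SD of each group. Dnajb4, Dnajc2 and Dnajc21 lie wholly above the controls, Dnajc15, Dnajc19 and Hspb11 wholly below, and Dnajb1 overlaps.

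Small heat shock proteins hold unfolded proteins without ATP. Of 8 genes named Hspb1 to Hspb11, only 2 were tested. Hspb1, the heat-inducible HSP27, had 1 count in each of 2 libraries and none in the other 6. Hspb11 is small in name, since its product is better known as IFT25 of the intraflagellar transport complex. It fell 2.13-fold, from 39.3, 38, 47.4 and 46 CPM in control to 23.9, 13.1, 27.5 and 14.6 CPM in LKB1-deficient libraries, without overlap (log2 fold change -1.09 ± 0.23 (SE), edgeR adjusted p = 0.0118). Leaving out any single library kept this call (adjusted p at most 0.0376). Hspb6 was at 4.71 to 5.83 CPM and 2.91 to 7.31 CPM (log2 fold change -0.03, edgeR adjusted p = 0.946).

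For the cytosolic chaperonin, none of the 8 tested subunits passed. An unadjusted p under 0.05, which 4082 of 10396 tested genes had, was reached by 1 subunit, Cct6a. Cct6a was at 732, 870, 913 and 896 CPM in control and 980, 1137, 941 and 1822 CPM in LKB1-deficient libraries. LKB1-deficient replicate 4 stood far above the rest (log2 fold change 0.52, edgeR adjusted p = 0.11). The other subunits had log2 fold changes between -0.1 and 0.15, and their 95% intervals ran from -0.45 at the lowest to 0.48 at the highest. Cct2 was at 994, 1066, 1088 and 1155 CPM and 1047, 1085, 986 and 996 CPM (edgeR adjusted p = 0.743), and Tcp1, the founding subunit, at 1056, 1258, 1282 and 1276 CPM and 1180, 1348, 1326 and 1556 CPM (edgeR adjusted p = 0.477). Cct3, Cct4, Cct5, Cct7 and Cct8 had adjusted p-values of 0.459, 0.92, 0.925, 0.683 and 0.928, and the sign of Cct2, Cct3, Cct4, Cct5, Cct7, Cct8 and Tcp1 turned under at least 1 alternative. Control replicate 1 was the lowest control for all 8 subunits, and control replicate 4 the highest for 6. In the LKB1-deficient group the order was less uniform: replicate 1 was the highest for 5 subunits but the lowest for Tcp1, and each of the 4 replicates was the lowest for at least 1 subunit. The groups overlapped in all subunits but Cct6a.

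**Figure D4:**
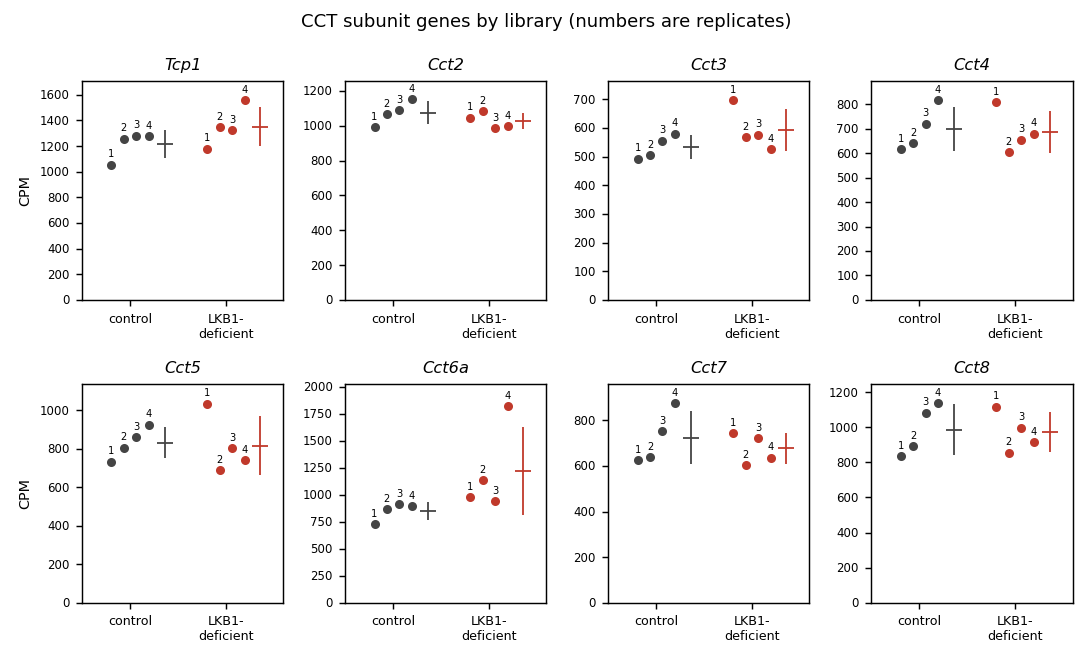
CPM (vertical axis, from 0) of the 8 tested CCT subunit genes in each library; numbers are replicates and the bars are the mean ± SD of each group. The groups overlap in every subunit but Cct6a, control replicate 1 is the lowest control in all 8, and Cct6a reaches 1822 CPM in LKB1-deficient replicate 4.

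Proteins that help CCT showed a fall in 2 of 15 tested genes and no rise, 13.3% called beside 22.5% of all genes. Pfdn5, a subunit of prefoldin, which hands nascent actin and tubulin to CCT, went from 151 ± 23.9 to 91.3 ± 13.2 CPM (SD, n = 4 each, edgeR adjusted p = 0.0134), and Tbce, a tubulin folding cofactor, from 49 ± 2.24 to 34 ± 2.75 CPM (edgeR adjusted p = 0.0136).

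Of the 12 genes for heat shock factors, BAG proteins and co-chaperones, 3 rose and none fell, a share of 25% beside 22.5% of all genes. Hsf1, the main heat shock factor, was at 37.8, 34.5, 41.5 and 41.8 CPM in control and 48.1, 39.9, 37.9 and 31.8 CPM in LKB1-deficient libraries, and the groups coincided (log2 fold change 0.02, 95% interval -0.30 to 0.34, edgeR adjusted p = 0.937). The activity of HSF1 is set mainly after translation, which these counts do not measure. Hsf2, a second factor of the family, was at 26.7, 24.5, 23 and 23.4 CPM and 39.7, 39.9, 28.5 and 34 CPM, without overlap (1.45-fold, log2 fold change 0.54 ± 0.14 (SE), edgeR adjusted p = 0.025), a call that ended in 10 of 21 alternatives. Bag6, which guards tail-anchored proteins before membrane insertion, rose 1.29-fold, from 83.7 to 90.3 CPM in control to 106 to 122 CPM (edgeR adjusted p = 0.0374). Hspbap1, whose product binds HSP27, rose 1.38-fold (edgeR adjusted p = 0.0461). These 2 calls were the least stable, ending in 17 and 19 of 21 alternatives.

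The BAG genes that did not pass were also mostly above 0. Bag3, which joins HSP70 to autophagy, was at 6.02, 5.28, 3.48 and 2.21 CPM in control and 4.78, 11.1, 6.14 and 11.3 CPM in LKB1-deficient libraries, with LKB1-deficient replicate 1 inside the control range (log2 fold change 0.94, edgeR adjusted p = 0.0843). Bag4, called SODD and known from death receptor signalling, was at 43.8, 39.3, 33 and 36 CPM and 46.1, 61.2, 39.8 and 97 CPM (edgeR adjusted p = 0.0738). Bag5 ran from 33.8 to 37 CPM and from 38.4 to 59 CPM (edgeR adjusted p = 0.0968), Bag1 from 228 to 274 CPM and from 221 to 308 CPM (edgeR adjusted p = 0.942), and Bag2 from 23 to 27.4 CPM and from 21.9 to 30.4 CPM (edgeR adjusted p = 0.44). Stip1, the HOP adaptor that joins HSP70 to HSP90, was at 230 to 264 CPM and 247 to 325 CPM (log2 fold change 0.25, edgeR adjusted p = 0.204). Ahsa1, which stimulates the HSP90 ATPase, was at 166 to 183 CPM and 155 to 218 CPM (log2 fold change 0.16, edgeR adjusted p = 0.399). Among 20 other genes listed as HSP90 co-chaperones, Trap1 included, 2 rose and none fell. All 20 were tested, and 10% were called beside 22.5% of all genes. Ptges3, the p23 co-chaperone, went from 121 ± 21.6 to 204 ± 15 CPM (SD, n = 4 each, edgeR adjusted p = 0.01), and Ppid, cyclophilin 40, rose 1.59-fold (edgeR adjusted p = 0.0469), a call lost in 18 of 21 alternatives. None of the 4 tested genes listed as nucleotide exchange factors passed. Hyou1, an HSP110 relative of the ER named after its values were seen, had a log2 fold change of 0.99 (edgeR adjusted p = 0.112).

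Of 14 listed classic heat-inducible members, 13 were tested, and 5 rose and none fell, 38.5% called beside 22.5% of all genes: Hspa1a, Hspa1b, Hsph1, Hsp90aa1 and Hsp90ab1 (median log2 fold change 0.49 over the 13). Dnajb1, Dnaja1, Bag3, Stip1, Ahsa1, Hspa8, Hspd1 and Hspe1 did not pass. The list also holds Hsp90ab1 and Hspa8, described above as constitutive forms, so its share is not that of heat-inducible genes alone. The log2 fold change was above 0 for 12 of the 13, with Dnajb1 the exception. An unadjusted p under 0.05 was found for 7 of the 13, beside 4082 of all 10396 tested genes. Of 14 further tested genes listed as heat-inducible targets of HSF1, 4 rose and 1 fell, 35.7% called beside 22.5% of all genes. Gadd45b, a growth arrest and stress gene, rose 1.71-fold (edgeR adjusted p = 0.0276, lost in 9 of 21 alternatives), and Ptges3 and Ppid are given above. The fourth, Usp15, a deubiquitinase named after its values were seen, rose 1.42-fold. Ubb, a polyubiquitin gene, fell 2.25-fold (22.6 ± 6.46 to 9.99 ± 1.02 CPM, SD, n = 4 each, edgeR adjusted p = 0.00929). Of the other HSF family genes and HSF regulators, 2 were tested and 1, Hsf2bp, fell 2.7-fold (edgeR adjusted p = 0.0396, lost in 12 of 20 alternatives).

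Of the 56 tested chaperone genes that did not pass, 11 had an unadjusted p under 0.05, 9 of them with a log2 fold change above 0. They were Hspa4, Hspd1, Dnajc1, Dnajc11, Dnajc12, Dnajc13, Dnajc24, Cct6a, Bag3, Bag4 and Bag5. An unadjusted p under 0.05 was common in the whole table, with 4082 of 10396 tested genes, beside 30 of the 75 tested chaperone genes. The genes under the count filter reached at most 1.75 CPM in any library. In both groups the identifier of replicate 1 opens with ET and those of the other replicates with EU. In the EU libraries alone 11 chaperone genes rose and 3 fell, while with 1 ET library in each group no test can be made there. Exons of 5 of the 19 called genes overlap those of a gene on the opposite strand (Hsp90b1, Hspa1a, Dnajb6, Dnajc19 and Hspbap1), and whether the counting used strand is not given in the sources used here.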

How the data were processed

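The deposited files hold raw read counts per gene, 1 file per library, made by the authors from 3' RNA-seq reads. Per the submitters' processing notes, STAR and mm10 were used; for the counting program and its strand setting, nothing is stated. Each file's 5 summary lines, which carry no gene name, did not enter library sizes, reads in no gene being 12.1% to 14.3% in control and 14.9% to 17.5% in LKB1-deficient libraries. Counts were filtered with filterByExpr (minimum count 10, minimum total 15), scaled by TMM and tested over all genes with the quasi-likelihood test of edgeR 4.0.16 (R 4.3.3), robust fit, Benjamini-Hochberg adjustment, threshold 0.05. SE is the log2 fold change over the square root of F. All pairs of libraries within a group differed beyond counting error (chi-square over its degrees of freedom at least 10.9). DESeq2 1.42.0, limma 3.58.1 and other settings were alternatives. Coordinates come from GENCODE M21 (GRCm38). On simulated data of 10396 genes, only 67, 67 and 66 were changed 1.5-, 2- and 4-fold. The test recovered 11.9%, 52.2% and 97% of these, with 6 false of 113 calls. In the data 2337 genes were called, so the adjusted threshold asked for a smaller p in the simulation than here. The recovered shares are thus not those of the test on these data.

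Members and lists were chosen with earlier results of these data known. Named were the called members, the 2 members with the highest mean CPM in each family, set members whatever their p, and up to 2 genes that rose and 2 that fell with the smallest p in each list. Hspa4l, Hspa14, Dnajb9, Dnajb11, Dnajb12, Dnajb14, Dnajc3, Dnajc10, Dnajc1, Dnajc11, Dnajc12, Dnajc13 and Dnajc24 fall outside this rule and were named after their values were seen. The same holds for Dnajc14, Dnajc16, Dnajc18 and Dnajc25, for Cd3e, Cd2 and Hdc, and for the untested B cell markers and the NK cell markers named above.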

Additional observations from a re-analysis of the deposited data

Results flagged for a closer look

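In 3 of 88 groups of 4 libraries, 1 library stood apart from the other 3 by more than Dixon's critical share of the group's range, and chance places about 5% of groups there. Bag2 was at 21.9 CPM in LKB1-deficient replicate 2, with the nearest library of the group at 29.8 CPM. Bag5 was at 33.8 CPM in control replicate 2, with the nearest at 36.9 CPM. Tcp1 was at 1056 CPM in control replicate 1, with the nearest at 1258 CPM.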

How the results depend on the processing

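Of the chaperone genes, 16 rose and 3 fell. The count that rose was 8 with total count scaling, 10 with the replicate block, 1 without LKB1-deficient replicates 2 and 4, 1 against a 1.5-fold change and 2 at an adjusted p of 0.01; the count that fell was 0 in each of the last 3 of these settings. In these 3 settings 2.37%, 1.7% and 4.2% of all tested genes were called, beside 1.3%, 1.33% and 2.67% of chaperone genes. Leaving out 1 library at a time gave 6 to 16 that rose and 2 to 3 that fell, with 9.61% to 26.7% of all tested genes called. Every one of the 19 called genes kept its direction in each setting in which it was tested. Same-numbered libraries correlated at -0.25, 0.29, 0.3 and -0.09 in their deviations from the group means, so the numbers were not taken to pair the samples, and 13 of the 19 calls were kept under the replicate block. DESeq2 gave 22 that rose. Of 25 named genes that were not called, 15 changed sign and 4 were called in at least 1 setting. At this depth 11.9% of simulated 1.5-fold changes were found, in a simulation that changed far fewer genes than were called here. That share does not give the recovery in these data. A gene that did not pass is not shown to be unchanged.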
